A study of Mus musculus with 8 samples.

Results

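The promoters of Rik transcripts are promoter regions whose gene carries a symbol ending in Rik, the form given to transcripts known first as RIKEN mouse cDNA clones. The rule took every autosomal promoter of the deposited promoter table with such a symbol, apart from 4930505O20Rik and 1700063H04Rik, which it left out by name. It found 346 promoters with 5100 measured cytosines, of 9224 promoters with 203645 cytosines in all, of which 9004 promoters were autosomal. Of the 346, 134 promoters with 1446 sites had a clone prefix from a testis library (1700, 4921, 4930, 4931, 4932 or 4933), and 212 promoters with 3654 sites had another prefix.

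DNA methylation was measured by reduced representation bisulfite sequencing (RRBS), in which DNA is cut by MspI at CCGG and unmethylated cytosines are converted, so that each read tells whether a cytosine was methylated. The samples were 8 cultures of germline stem (GS) cells, spermatogonial stem and progenitor cells that keep dividing in the presence of GDNF. All 8 lines were labelled B6 and WT, and 4 lines came from F1 mice born after natural mating (control-F1 lines 29, 37, 44 and 45) and 4 from F1 mice born after intracytoplasmic sperm injection (ICSI-F1 lines 11, 17, 20 and 21), in which a sperm is injected into the oocyte. The comparison asked whether the germline of mice conceived by ICSI differs in methylation. Each line was 1 library, the culture had been started from sorted spermatogonia of mature testes, and the labels carry M1 in every ICSI-F1 line without saying what it means. The line numbers match numbers given to single F1 mice in the supplement of the study, though the labels do not state that each line came from its own mouse, and p-values here measure the spread between lines.

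RIKEN clone names begin with a code for the cDNA library from which the clone was taken, and several of these libraries were made from testis. Many Rik genes are long noncoding RNAs or little studied coding genes, and a large share of those found in testis are transcribed in meiotic and postmeiotic germ cells. Promoters within CpG islands are as a rule unmethylated in all tissues, whereas CpG-poor promoters can be methylated, and methylation of a promoter usually goes with a silent gene. Spermatogonia carry a largely methylated genome in which the promoters of many germ cell genes are unmethylated.

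The sequences of 8 promoters on which the results turn are shown on the plus strand of mm10 (GRCm38), 5′ to 3′, with every measured CpG in capitals. The first 3 were higher in the ICSI-F1 lines at 5 or more cytosines by the 20-point rule given below. They lie at chr4:142017255-142017439 (4930455G09Rik, plus-strand gene), chr7:65213432-65213651 (1810049I09Rik, minus-strand gene) and chr17:48315138-48315332 (B430306N03Rik, plus-strand gene), all between genes in the annotation used here.
4930455G09Rik: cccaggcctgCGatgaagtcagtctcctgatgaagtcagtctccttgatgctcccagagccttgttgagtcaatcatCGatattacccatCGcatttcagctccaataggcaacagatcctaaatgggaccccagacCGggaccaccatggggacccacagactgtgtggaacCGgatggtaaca
1810049I09Rik: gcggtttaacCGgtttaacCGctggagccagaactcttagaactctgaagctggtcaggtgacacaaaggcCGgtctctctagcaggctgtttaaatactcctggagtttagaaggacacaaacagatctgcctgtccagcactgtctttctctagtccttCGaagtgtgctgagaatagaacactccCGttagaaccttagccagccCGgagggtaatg
B430306N03Rik: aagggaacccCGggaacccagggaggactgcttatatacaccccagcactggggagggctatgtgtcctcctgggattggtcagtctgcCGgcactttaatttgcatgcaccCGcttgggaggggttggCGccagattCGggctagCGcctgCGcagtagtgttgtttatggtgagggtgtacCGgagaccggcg
The next holds the one Rik cytosine that was lower in the ICSI-F1 lines by the same rule. It lies at chr16:93368014-93368181 upstream of the plus-strand gene 1810044K17Rik.
1810044K17Rik: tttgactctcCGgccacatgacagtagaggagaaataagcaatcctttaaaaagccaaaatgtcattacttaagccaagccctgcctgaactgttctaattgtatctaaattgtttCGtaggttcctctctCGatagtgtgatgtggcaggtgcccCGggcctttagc
A further pair stood apart in a single line, at chr4:53245982-53246182 (4930522O17Rik, plus-strand gene) and chr10:35485467-35485552 (1700054O05Rik, minus-strand gene).
4930522O17Rik: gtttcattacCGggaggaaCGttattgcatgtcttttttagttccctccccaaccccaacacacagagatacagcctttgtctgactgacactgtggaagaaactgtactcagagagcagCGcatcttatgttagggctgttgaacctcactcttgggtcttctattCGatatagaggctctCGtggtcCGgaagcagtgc
1700054O05Rik: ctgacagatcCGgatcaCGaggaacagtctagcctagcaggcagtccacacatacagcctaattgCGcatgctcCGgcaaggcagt
The last pair sets a highly methylated promoter beside a little methylated one. The first of them was the most methylated Rik promoter with 5 or more sites, at chr8:121544489-121544600 upstream of the minus-strand gene 1700018B08Rik and inside an exon of 1700030M09Rik. The second was a CpG island with a level of 4.77%, at chr3:88177784-88178023 upstream of the minus-strand gene 1700113A16Rik, with 20 measured CpGs in 240 bases against 4 in 112 bases.
1700018B08Rik: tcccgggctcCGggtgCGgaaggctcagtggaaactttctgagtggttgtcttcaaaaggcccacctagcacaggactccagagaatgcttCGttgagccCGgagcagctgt
1700113A16Rik: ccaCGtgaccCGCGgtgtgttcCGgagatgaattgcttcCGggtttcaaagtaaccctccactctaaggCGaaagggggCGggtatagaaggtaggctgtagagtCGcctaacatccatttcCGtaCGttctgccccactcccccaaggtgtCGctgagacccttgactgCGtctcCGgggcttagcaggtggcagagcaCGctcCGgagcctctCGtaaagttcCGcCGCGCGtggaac

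A promoter's level is the mean percent methylation of its measured sites in a line, and the means below are over promoters. A promoter held between 1 and 143 sites with a median of 7, and 227 of the 346 had 5 or more sites while 40 rested on 1 site. Of the 5100 sites, 5074 lay upstream of the gene start and 26 downstream, at a median distance of 145 bases. The deposited read numbers had been scaled to a common depth, with medians of 75 to 89 reads per Rik site in the 8 lines. Undoing the scaling gave medians of 40 (line 37) to 82 reads (line 45), so line 37 was the shallowest. On opposite strands of 1 CpG in 1 line, 1990 Rik CpGs differed by a median of 2.59 percentage points, and by 23.9 points where the mean of both strands was 20% to under 80%. The level of a line is an average over its cells and both alleles, which cannot be told apart. By labels and read numbers the libraries formed 2 sets, set 1 with lines 29, 37, 11 and 17 and set 2 with lines 44, 45, 20 and 21. Each set held 2 lines of each group. The 250 Rik promoters under 20% averaged 4.22% to 5.48% in the lines of set 1 and 6.47% to 7.68% in those of set 2, with no overlap. Of 18 listed germ cell genes that somatic cells methylate, 10 had a measured promoter, among them Dazl, Ddx4, Mael and Sycp1. All 10 were under 20% (2.45% to 9.09%), with 1 site in Tdrkh and 3 in Rpl10l. So were 7579 of all 9004 autosomal promoters, and the 10 are therefore a weak check of the cell type.

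Most Rik promoters were unmethylated in GS cells. Over the 8 lines, 250 of 346 (72.3%) averaged under 20%, 36 (10.4%) were intermediate, from 20% to under 80%, and 60 (17.3%) were at 80% or more. Among all 9004 autosomal promoters these shares were 84.2%, 7.54% and 8.29%. The mean level of Rik promoters was 24.8% (22.3% to 26.5% across lines), against 15.7% over all autosomal promoters, 12.6% over the 7938 that are neither Rik nor Gm, and 45.5% over the 718 Gm promoters, whose genes carry names given to predicted transcripts. The medians lay closer together, at 7.09% for Rik and 5.67% for all autosomal promoters, and the gap in the means went with the larger upper class.

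CpG islands went with the split. Of the Rik promoters, 144 (41.6%) had at least 50% of their sites in islands, compared with 59.6% of all autosomal promoters. These island promoters averaged 5.69%, and 141 of 144 were under 20% with none at 80% or more. The 202 Rik promoters outside islands averaged 38.3%, with 60 at 80% or more (29.7%). Outside islands, 20.4% of all autosomal promoters were at 80% or more, with a mean of 30.1%. Among single Rik sites, the 3111 in islands averaged 5.03%, the 465 in shores 14.1%, the 121 in shelves 10.2% and the 1403 farther away 24.5%. Levels were also lower near the gene start, at 8.40% for sites within 200 bases, 11.7% over 200 to 500 bases and 20.4% beyond 500 bases. The 244 sites in sequence masked as repeats averaged 32.4% and the 4856 others 10.3%.

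**Figure D1:**
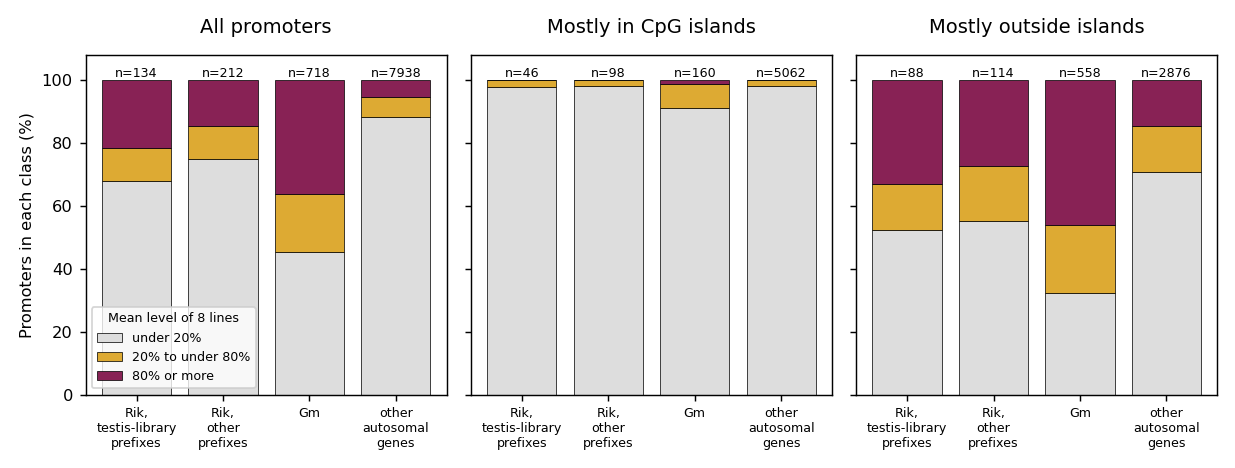
Share of promoters (y axis, percent of each set) whose mean level over 8 lines was under 20%, from 20% to under 80%, or at 80% or more, for Rik promoters with testis-library prefixes, Rik promoters with other prefixes, Gm promoters and other autosomal genes. The left panel holds all promoters, the middle those with at least 50% of sites in CpG islands and the right the rest; no Rik promoter in islands reached 80%, while 60 of 202 outside did.

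Rik promoters with testis-library prefixes were on average more methylated than those with other prefixes, by 5.64 percentage points (4.10 to 6.30 across lines, higher in 8 of 8 lines). The means were 28.2% for the 134 testis-library promoters (25.2% to 29.9% across lines) and 22.6% for the 212 others (20.4% to 24.9%). The medians were nearly equal, at 7.14% and 6.87%. The classes differed in the number of highly methylated promoters, 29 of 134 (21.6%) against 31 of 212 (14.6%). Promoters are not replicates, and all lines share them, so the size is given without a test. The difference was 2.80 points with each site counted once and 0.39 for medians over promoters. Prefix 1700 alone, against all other Rik promoters, was 9.17 points higher, and the prefixes starting 49 alone 0.35 points higher. In the latter, the 1700 promoters (mean 32.4%) counted among the rest. The 0.35 is therefore not a gap to the other-prefix class.

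Class differences in CpG islands and gene type moved with the prefix. Fewer testis-library promoters lay in islands, 34.3% against 46.2%. Within islands the testis-library class was 0.70 points lower (46 against 98 promoters). Outside islands it was 3.35 points higher in the mean and 0.82 points lower in the median (88 against 114). The sign there changed with CpG density around the gene start. The mean difference was -6.95 points under 2 CpGs per 100 bases (28 against 34) and -8.25 at 4 or more (21 against 32). From 2 to under 4 it was 13.9 points (39 against 48). Among promoters with 5 or more sites the mean difference was 1.64 points. By the annotation of the genes, 39 testis-library and 84 other Rik genes were protein-coding, and there the difference was 14.7 points. For the noncoding RNAs, 95 against 127, it was -0.82 points, below 0 in all 8 lines. Outside islands the coding testis-library promoters averaged 40.6% (n = 24) and the coding others 22.5% (n = 35), a gap of 18.2 points that was between 14.5 and 20.6 in every line, whereas the noncoding promoters were at 40.1% (n = 64) and 43.3% (n = 79). Of the 24, 9 were at 80% or more, compared with 5 of the 35. Of these 14 promoters, 8 rested on fewer than 5 sites.

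**Figure D2:**
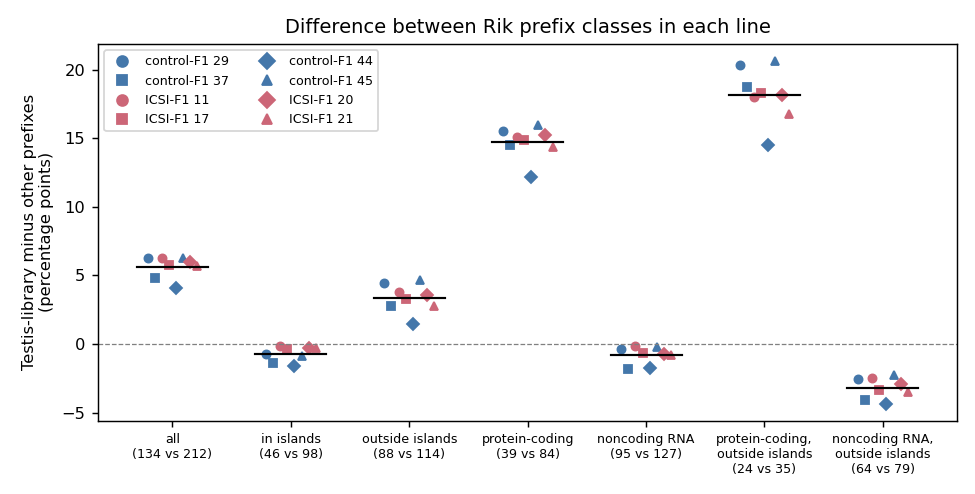
Mean promoter level of Rik genes with testis-library prefixes minus that of Rik genes with other prefixes (y axis, percentage points) in each of the 8 lines, for all promoters and within strata of CpG island and gene type (x axis, numbers of promoters in parentheses). Points are single lines and black bars their means; the difference was above 0 in every line over all promoters and for coding genes, and below 0 in every line for noncoding RNAs and in islands.

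Several coding promoters of the testis-library class were highly methylated in every line. 1700018B08Rik had 98.1%, 100.0%, 99.2% and 99.3% in control-F1 lines 29, 37, 44 and 45, and 100.0%, 99.3%, 96.9% and 98.6% in ICSI-F1 lines 11, 17, 20 and 21. Its groups overlapped. 4933409G03Rik (5 sites) ranged from 91.0% to 98.0% and 1700069L16Rik (5 sites) from 90.1% to 98.9%. Wider ranges were seen in 4921509C19Rik, from 68.6% to 95.7%, and in 1700015F17Rik, from 73.7% to 100%. The other Rik promoters with the highest levels among those with 5 or more sites were 4930572G02Rik (97.1% over all lines), C030004G16Rik (97%), 9430002A10Rik (96.8%) and 9430024E24Rik (96.8%), all noncoding and outside islands.

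Single prefixes spread widely within both classes. Of the testis-library prefixes, 1700 averaged 32.4% (58 promoters), 4933 30.4% (14), 4931 26.1% (5), 4930 25.5% (48) and 4921 16.5% (7). Of the other prefixes with 5 or more promoters, A930 was highest at 60.0% (5), followed by 2310 at 42.1% (10) and 1810 at 28.4% (12), while 2610 was at 2.62% (7), 2810 at 3.94% (5) and 0610 at 6.24% (5). Prefixes 1700 and 4933 thus stood below 2 of the other prefixes, and the spread of single prefixes exceeded the difference between the classes. All 5 promoters of prefix 0610 and 71.4% of those of 2610 lay in islands, against 10.0% of those of 2310.

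The promoters with the most sites had low levels. The 3 testis-library promoters with the most sites were 1700025G04Rik (73 sites, 6.40%), 1700064H15Rik (53 sites, 7.17%) and 1700113A16Rik (49 sites, 4.77%), and the 3 others were 2700081O15Rik (143 sites, 6.38%), 2610037D02Rik (140 sites, 3.23%) and 1300014J16Rik (106 sites, 5.71%). Between ICSI-F1 and control-F1 these 6 differed by -1.13 to 1.28 points, and all 6 overlapped between groups.

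CpG density followed the same order. Within 250 bases before to 50 after the gene start, Rik promoters under 20% had a median of 7.0 CpGs per 100 bases, intermediate ones 2.0 and those at 80% or more 1.67. Of letters searched for on both strands in this window, GGCGGGA, an E2F-type motif, was in 14.5% of Rik and 21.5% of all autosomal promoters. It was in 49 of the 250 unmethylated (19.6%) and 0 of the 60 highly methylated Rik promoters. Over all autosomal promoters of these classes the shares were 24.3% and 2.55%, so the contrast is not particular to Rik promoters. CCGGAAG, an ETS-type motif, was in 22% of Rik and 18.3% of all autosomal promoters. TGACGTCA, the cAMP response element, was in 2.31% and 3.27%. CACGTG, an E-box, was in 10.7% of both, and CCAAT in 35.8% and 37%. None of the 5 motifs contains another. Testis-library and other Rik promoters held TGACGTCA in 4 of 134 and 4 of 212. A match of letters is not evidence of binding, and the first 3 motifs and CACGTG contain a CpG, so their counts move with CpG density.

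Averaged over Rik promoters, the difference between ICSI-F1 and control-F1 lines was smaller than the SD of the lines, whose levels also differed between library sets. The control-F1 lines averaged 24.3% ± 1.95 (SD, n = 4) and the ICSI-F1 lines 25.2% ± 1.25 (n = 4), a difference of 0.97 points, with 1.52 in library set 1 and 0.42 in set 2. In set 1 the ICSI-F1 lines were at 23.9% and 24.5% and the control-F1 lines at 23% and 22.3%, without overlap, and in set 2 they were at 26.2% and 26.3% against 26.5% and 25.3%. Leaving out 1 line gave 0.30 (without line 37), 0.56 (29), 0.60 (21), 0.63 (20), 1.22 (17), 1.31 (45), 1.42 (11) and 1.70 (44). Of the 346 promoters, 168 were higher and 178 lower in ICSI-F1, with a median difference of -0.06 points, against -0.16 over all autosomal promoters. The testis-library class differed by 1.31 points (73 of 134 higher) and the others by 0.75 (95 of 212 higher).

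**Figure D3:**
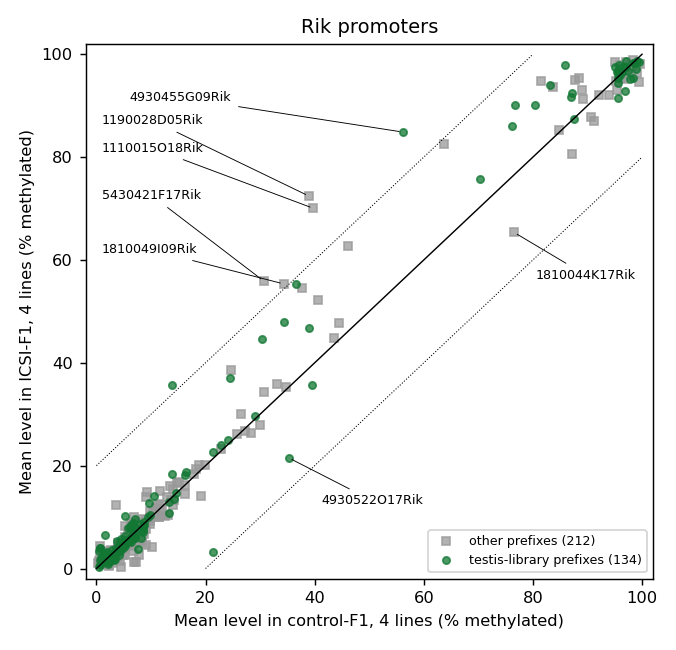
Mean level of each of the 346 Rik promoters in the 4 control-F1 lines (x axis, percent methylated) and in the 4 ICSI-F1 lines (y axis, percent methylated), with testis-library prefixes as circles and other prefixes as squares. The solid line marks equal levels and the dotted lines differences of 20 points; most promoters lie near the solid line at its ends, and those farthest above it are at intermediate levels.

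At single cytosines the study's threshold was applied, a difference of more than 20 percentage points between the group means, with sites reversed in a line left out. This exclusion was read here as each ICSI-F1 line deviating from the control-F1 mean in the same direction, and the rule involves no test. By this rule 36 Rik sites were higher in ICSI-F1 (0.706% of 5100), where 0.274% of all sites were called, and 1 was lower (0.0196%), where 0.0506% were. Without the exclusion 42 were higher and 2 lower, and with groups required not to overlap 6 and 1. The 36 sites lay in 16 promoters (4.62% of 346; 3.39% of all promoters had such a site), and 1 promoter had the lower site (0.289%; 0.553% of all). Testis-library prefixes held 13 of the higher sites in 7 promoters, and other prefixes 23 in 9. All but 1 of the 36 (6430548M08Rik, in an island) lay outside islands, shores and shelves. There 2.49% of Rik sites and 1.43% of all sites were called higher. Masked repeats held 8 of the 36, 5 of them in B430306N03Rik alone, and 4.78% of all Rik sites. The count of higher sites was 72 without control-F1 line 44 and between 28 and 52 without any other line, and lower sites numbered 0 to 7. Within sets the counts were 101 higher and 18 lower (set 1), and 34 and 25 (set 2). For these variants of the rule and of the lines no share over all sites is given here. They show only how the Rik counts moved.

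The 36 differences ran from 20.4 to 45.6 points, where the strands of an intermediate CpG in 1 line differed by a median of 23.9. Of the 36, 6 sites had no overlap between the groups. Over all sites, called or not, 0.427% lay apart in this direction. That share has no required difference, so it cannot be compared with the share among the 36. The 36 sites fell on 31 CpGs, 5 of them called on both strands. On 12 more the other strand was measured and not called. There 11 were also higher in ICSI-F1, and the median difference over all 12 was 17 points. Just outside the threshold were 1810049I09Rik (19.7 points), B430306N03Rik (19.6) and 1810063I02Rik (19.5), and just inside it B430306N03Rik (20.4), 1700023F02Rik (20.6) and 4833419O12Rik (20.8).

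A total of 9 promoters had 2 or more higher sites (2.60% of 346, against 0.943% of all promoters), all at intermediate levels. Of these, 8 were noncoding RNAs, but so were 95 of the 134 testis-library and 127 of the 212 other Rik promoters. Among intermediate Rik promoters outside islands, only 2 testis-library and 4 other ones were coding. A noncoding majority is therefore not particular to the 9. The promoter of 4930455G09Rik, an antisense RNA whose sites lie 469 to 633 bases upstream of its start, had 40.9%, 62.9%, 68.9% and 51.7% in control-F1 lines 29, 37, 44 and 45. In ICSI-F1 lines 11, 17, 20 and 21 it had 84.0%, 84.2%, 73.5% and 97.8%. Every ICSI-F1 line was above every control-F1 line. The means were 56.1% ± 12.4 and 84.9% ± 9.97 (SD, n = 4 each), a difference of 28.8 points, with 32.2 in set 1, 25.4 in set 2 and 23.7 to 33.0 with 1 line left out. In the limma fit over all promoters its SE was 6.97 and its adjusted p = 0.9997. Of its 9 sites, all were higher on average in ICSI-F1 and 5 passed the rule, the largest being 43.4% ± 13.2 against 89.0% ± 13.5 at 142017332, with 10 to 69 scaled reads. The CpG next to the start of the printed window was at 25.9% in line 29 and 89.4% in line 37, so control-F1 lines were also far apart.

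The noncoding RNA 1810049I09Rik had a gradient along its promoter, and the groups differed at both ends of the printed window. Its level was 27.3%, 32.5%, 49% and 28.4% in control-F1 lines 29, 37, 44 and 45, and 64.1%, 50.6%, 40.7% and 66% in ICSI-F1 lines 11, 17, 20 and 21. Only ICSI-F1 line 20 was below a control-F1 line (44). The means were 34.3% ± 10.1 and 55.4% ± 11.9, a difference of 21 points (27.4 in set 1, 14.7 in set 2; limma SE 7.36, adjusted p = 0.9997). Nearest the start, 13 bases upstream, the cytosine at 65213442 had 12.7%, 2.5%, 9.0% and 3.0% in the control-F1 lines and 36.4%, 28.7%, 27.2% and 39.5% in the ICSI-F1 lines. At 22 bases it had 7.71% ± 3.66 and 36.4% ± 9.88. Both sites were apart in all lines. The minus-strand cytosine of the latter CpG, at 23 bases, had 9.11% ± 10.2 and 32.6% ± 16.5. There the groups overlapped, with control-F1 line 44 at 24.0% and ICSI-F1 line 20 at 10.2%. At 211 bases the level was already 58.6% ± 12.6 in control-F1, and 80.7% ± 5.2 in ICSI-F1. On the other strand of that CpG, at 212 bases, it was 41.2% ± 26.3 and 70.0% ± 19.8, with overlap. Of 12 sites, 6 passed the rule.

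Another 3 promoters with 5 or more sites had at least 2 called sites, and in each the difference was larger in set 1 than in set 2. B430306N03Rik, a coding gene near Treml2 whose measured CpGs are mostly masked as repeat, had 61.6%, 40.5%, 82.3% and 70.5% in the control-F1 lines and 79.4%, 89.8%, 62.8% and 98.1% in the ICSI-F1 lines in the same order. The groups overlapped, since ICSI-F1 line 20 was below 2 control-F1 lines. Its difference was 18.8 points, with 33.5 in set 1 and 4.08 in set 2, and 11.1 without line 37. 1810063I02Rik differed by 16.8 points (46.0% ± 12.8 and 62.8% ± 7.18), with 20.2 and 13.3 in the sets, and its 3 called sites lay 576 to 585 bases downstream of the annotated start. 4930556N09Rik differed by 14.4 points (30.3% ± 12.5 and 44.7% ± 10.6), with 25.4 in set 1 and 3.52 in set 2. In both, the groups overlapped.

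Another 4 promoters had 2 called sites among 2 to 4 measured ones. 1110015O18Rik had 29.5%, 18.5%, 65.2% and 46.0% in the control-F1 lines and 69.2%, 63.8%, 53.6% and 93.4% in the ICSI-F1 lines. The 3 lowest were control-F1 lines and the highest was ICSI-F1 line 21, while control-F1 line 44 was above 2 ICSI-F1 lines. 5430421F17Rik differed by 25.3 points, and by 13.1 without ICSI-F1 line 21, which had 92.5% when the other ICSI-F1 lines had 40.1% to 47.3%. 1700008N11Rik, whose sites overlap an exon of the pseudogene Gm8096, differed by 18.7 points (36.6% ± 15.5 and 55.3% ± 6.99). 4833419O12Rik differed by 16.8 points, with 32.4 in set 1 and 1.29 in set 2, and by 9.27 without line 29.

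**Figure D4:**
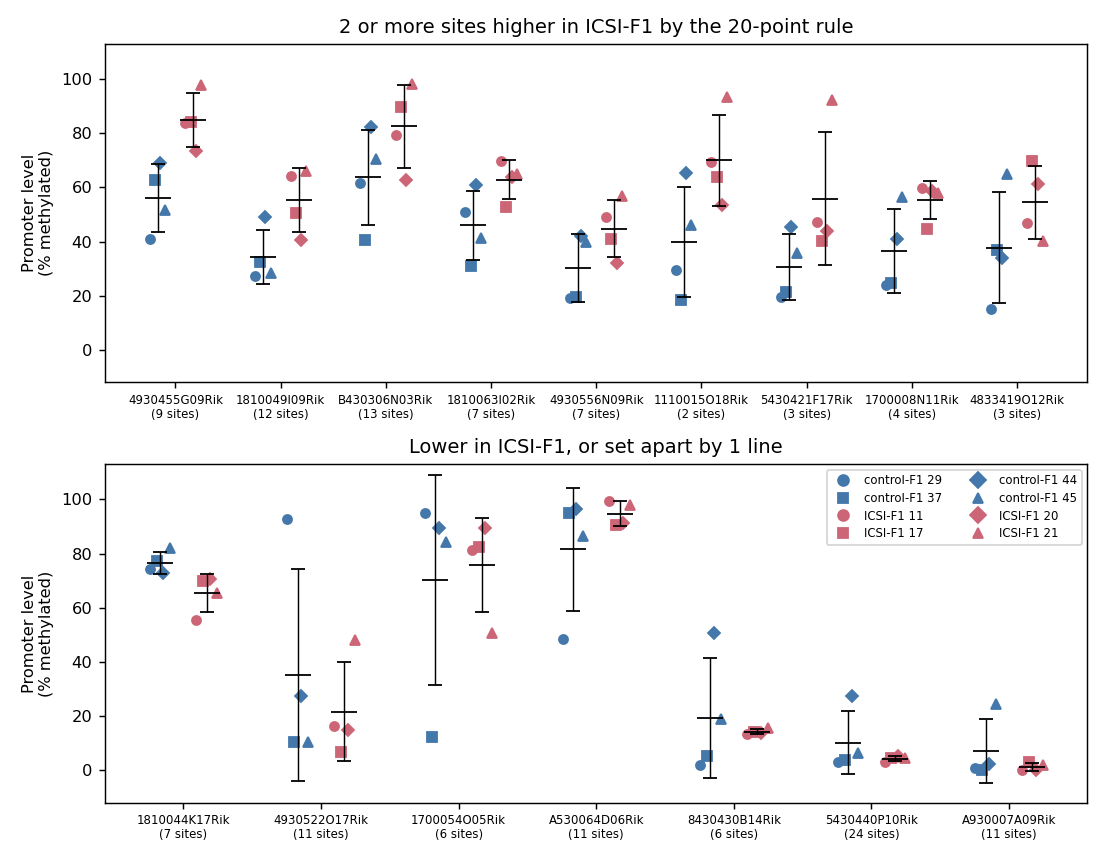
Promoter level (y axis, percent methylated) of 16 named Rik promoters in each line, control-F1 in blue and ICSI-F1 in red, with bars at the mean ± SD of 4 lines. The upper row holds the 9 promoters with 2 or more sites higher in ICSI-F1, where only 4930455G09Rik had no overlap; the lower row holds 1810044K17Rik, with ICSI-F1 below control-F1 in all lines, and promoters in which 1 line stood apart.

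Lines 21, 29 and 37 took the extremes in these promoters. Of the 16 promoters with a higher site, ICSI-F1 line 21 was highest in 9, control-F1 line 29 lowest in 10 and control-F1 line 37 lowest in 5. The 16 were picked by sites higher in ICSI-F1, so ICSI-F1 lines as highest and control-F1 lines as lowest are partly built in. The same lines led over all 679 intermediate autosomal promoters, which were not picked this way. There line 21 was highest in 28.0% and control-F1 line 44 in 21.8%, and lines 37 and 29 were lowest in 44.9% and 23.4%. Line 37 also had the lowest depth, and whether depth took part was not tested.

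The lower direction had 1 promoter with a called site. The promoter of 1810044K17Rik, a noncoding RNA 1481 bases from the start of Mir802, had 74.3%, 77.4%, 72.7% and 81.9% in control-F1 lines 29, 37, 44 and 45, and 55.4%, 69.9%, 70.7% and 65.4% in ICSI-F1 lines 11, 17, 20 and 21. Every ICSI-F1 line was below every control-F1 line. The means were 76.6% ± 4.07 and 65.4% ± 7.02, a difference of -11.2 points (limma SE 4.25, adjusted p = 0.9997), with -13.2 in set 1 and -9.23 in set 2. Its called cytosine, 93 bases upstream on the minus strand, had 62.4% ± 12.8 and 41.4% ± 5.3. The plus-strand cytosine of the same CpG had 48.1% ± 7.24 and 38.2% ± 12.5.

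In 3 other Rik promoters with the lowest differences, 1 control-F1 line stood apart. 5430440P10Rik was at 27.5% in line 44 and 2.85% to 6.35% in the other 7 lines, and its difference of -5.88 points became -0.08 without that line. A930007A09Rik was at 24.5% in line 45 and 0.00% to 2.98% elsewhere, in a promoter whose 11 sites were all in an island. 8430430B14Rik was at 50.7% in line 44 and 1.99% to 18.9% elsewhere, and its difference of -5.05 points became 5.46 without line 44.

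Some Rik promoters spread widely over the lines, within groups as well as between them. In all, 11 Rik promoters spanned more than 50 percentage points over the 8 lines, and 5 of these had 5 or more sites (2.20% of 227; 0.769% of all promoters of that size). 4930522O17Rik, an antisense RNA, had 92.7% in control-F1 line 29, 48.2% in ICSI-F1 line 21 and 6.56% to 27.3% in the other 6 lines. All 11 of its sites were at 80% or more in line 29. Its ICSI-F1 minus control-F1 difference was -13.7 points, and 5.46 without line 29.

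1700054O05Rik, a noncoding RNA, went the other way in line 37. It was at 12.3% in control-F1 line 37, 50.5% in ICSI-F1 line 21 and 81.2% to 94.9% in the other 6 lines. Its 6 sites ran from 8.90% to 17.4% in line 37, from 40.7% to 64.6% in line 21 and from 70.6% upward in the others. The difference of 5.59 points became -13.7 without line 37. A530064D06Rik, a coding gene, was at 48.3% in control-F1 line 29 and 86.5% to 99.3% elsewhere, and its difference of 13.2 points became 2.14 without that line.

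Promoters with few sites behaved likewise. 9130230L23Rik (4 sites) had 91.1% in control-F1 line 44 and 2.04% to 53.6% elsewhere, with 12 to 23 unscaled reads per site in line 44. 1700036A12Rik had a single site, at which 10 of 14 reads were methylated in control-F1 line 45 (71.4%, 95% Wilson interval 45.4% to 88.3%) and 0.00% to 13.0% in the other lines. In 4 of these no read was methylated among 16 to 55, which allows a share of up to 5.45% to 18.8%. 1190028D05Rik, also with 1 site, was at 25.7% to 47.1% in the control-F1 lines and at 46.4% to 98.5% in the ICSI-F1 lines, which overlapped by lines 44 and 11 alone.

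**Figure D5:**
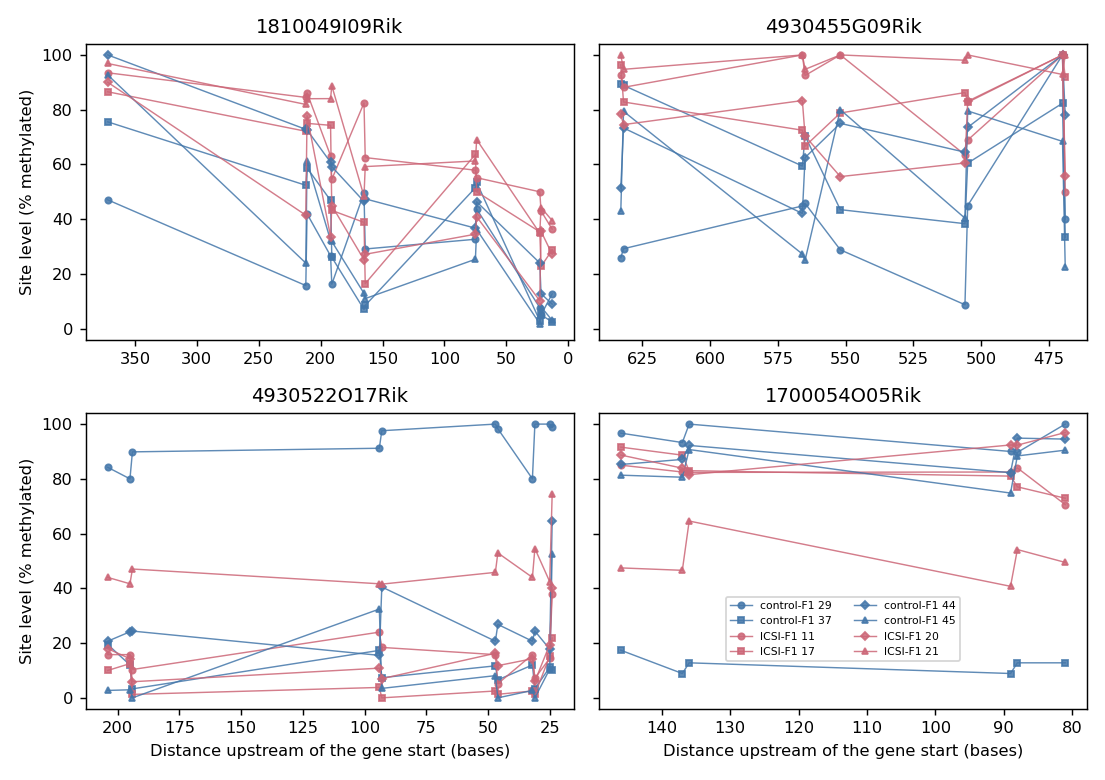
Level of each measured cytosine (y axis, percent methylated) against its distance upstream of the gene start (x axis, bases, start to the right) for 4 Rik promoters, with 1 line per GS cell line, control-F1 in blue and ICSI-F1 in red. In 1810049I09Rik and 4930455G09Rik the groups differ on average but lines cross between sites; in 4930522O17Rik line 29 and in 1700054O05Rik line 37 stand apart at all sites.

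No Rik promoter or site passed a test of the groups. limma on the levels of 9215 promoters called 0 Rik promoters, and 0 promoters in all, at an adjusted p (Benjamini-Hochberg) of 0.05, and 0 on log2 ratios of summed reads or with the library set as a covariate. At an unadjusted p under 0.05 it had 13 higher (3.76% of 346; 1.35% of all tested) and 5 lower Rik promoters (1.45%; 1.3% of all). Of the 13, 8 were intermediate, with differences of 12.5 to 33.5 points, and 3 were under 20% with differences of 3.08 to 3.34 points. In 2 Rik promoters every ICSI-F1 line was above every control-F1 line (0.578%; 0.672% of all), in 4930455G09Rik and, at 0.71% against 3.97%, in 1700067K01Rik, and in 4 every ICSI-F1 line was below (1.2%; 0.791% of all).

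At single sites a moderated logistic model called 0 of 4981 Rik sites, and 0 of 196818 tested, with a lowest adjusted p of 0.129. At an unadjusted p under 0.05 it had 162 Rik sites higher (3.25%; 2.6% of all) and 190 lower (3.81%; 4.47% of all). limma on log2 ratios called 0 of 5100, and the logistic model called 1 Rik site of 8 in all at a coverage of 20. Without control-F1 line 44 it called 3 Rik sites of 70 in all, without control-F1 line 37 it called 1 of 9, without ICSI-F1 line 17 it called 1 of 16, and without any other line 0 Rik sites. Of the 37 sites called by the 20-point rule, 35 had an unadjusted p under 0.05 in this model. The rule had picked them for the same group difference in the same lines, so these p-values add no support.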

How the data were processed

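RRBS libraries of 8 GS cell lines were analysed. The authors used Trim Galore 0.5.0 for trimming, Bismark 0.20.0 for non-directional alignment of paired reads of 150 bases to mm10, and methylKit for calling cytosines (1.16.0 in the submitters' processing notes). They scaled coverage between lines, removed sites under 10 reads or above the 99.9th percentile, and kept sites measured in every line without joining strands. The deposited table gives, for sites within 1000 bases of gene starts of Ensembl release 87, scaled read numbers per line, treated as a score because they are not raw counts. All its columns of values were mapped to lines, and 0 were left unmapped. A constant per line recovered whole unscaled reads at 100% of sites, 225491 to 422544 reads over Rik sites. Intervals cover counting error only, since PCR copies were not marked.

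Levels were methylated reads over all reads, averaged over sites and then promoters. The promoter test was limma 3.58.1 (R 4.3.3) with an intensity trend, and the site test a quasi-binomial logistic model with dispersions moderated by limma, both over the whole table and both checked on simulated data. Groups came from the sample titles. Library sets are inferred from whether a description was given and from read numbers, and were not stated as batches. Gene types and neighbours came from GENCODE M21, in which 11 Rik genes carry another name and 1 was not listed, and sequence, repeat masking and motifs from the RefSeq copy of GRCm38, where 203644 of 203645 sites lay on a CpG. The promoters, prefixes and lists were chosen with earlier results of these data known. Named promoters are, among those with 5 or more sites, the 5 highest and 5 lowest differences, the 5 highest levels, the 5 largest SDs over lines and the 3 with most sites per prefix class, and any with 2 or more sites past the 20-point rule in 1 direction. Other names (for example 1190028D05Rik, 9130230L23Rik, 1700036A12Rik, 1700067K01Rik, 1700069L16Rik, 4933409G03Rik, 4921509C19Rik, 1700015F17Rik and promoters next to a threshold) were added after their values were seen. Alternatives varied averaging, coverage, strands, islands, thresholds, prefixes and lines. Python 3.11.15, pandas 2.3.3, scipy 1.17.1 and matplotlib 3.10.9 were used.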

Additional observations from a re-analysis of the deposited data

Results flagged for a closer look

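Both groups of 4 lines were examined in each of 27 named Rik promoters and in the mean Rik level, 56 in all. Of these, 5 held a line far from the other 3 of its group. Chance flags about 1 in 20 groups, but that rate does not hold for promoters named from these same values. In 1700054O05Rik, control-F1 line 37 was at 12.3% and the other control-F1 lines at 84.4% to 94.9%. In 5430440P10Rik, control-F1 line 44 was at 27.5% (others 2.85% to 6.35%), and in A930007A09Rik control-F1 line 45 was at 24.5% (others 0.21% to 2.16%). In 5430421F17Rik, ICSI-F1 line 21 was at 92.5% (others 40.1% to 47.3%). In 1700008N11Rik, ICSI-F1 line 17 was at 44.8% (others 58.0% to 59.6%). Of these promoters, 1700054O05Rik was named for a large spread over lines. 5430440P10Rik and A930007A09Rik were named for a low difference, and 5430421F17Rik and 1700008N11Rik for sites past the 20-point rule.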

How the results depend on the processing

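No paired analysis was possible because the groups share no replicate numbers. The ICSI-F1 minus control-F1 difference over Rik promoters (0.97 points) moved by less than 1.63 points, the pooled SD of the lines, in 19 alternatives, from -0.18 for sites in islands to 2.16 for sites outside islands, shores and shelves. The testis-library minus other difference (5.64 points, and 5.55 to 5.86 without 1 line) was 2.80 with each site counted once. It was 0.39 for medians, 4.38 with 3 or more sites and 6.95 at a coverage of 30. For sites in islands it was -0.87, and for sites outside islands, shores and shelves 0.71. Set against all other Rik promoters, the remaining testis-library ones included, prefix 1700 alone gave 9.17 and the prefixes starting 49 alone 0.35. Sites higher by the 20-point rule (36) numbered 19 past 25 points, 9 past 30, 6 with no overlap, 101 in set 1, and 28 to 72 without 1 line. Sites lower (1) numbered 0 past 25 or 30 points, 2 without the exclusion, 0 with strands merged, 18 in set 1, 25 in set 2, and 0 to 7 without 1 line. The site test (0) called 1 Rik site at a coverage of 20 and 0 to 3 without 1 line. Of 27 named promoters, 17 kept the sign of their difference in every alternative. The cause of these changes was not tested. Line 37 had the lowest depth, a median of 40 unscaled reads.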
